A study of Homo sapiens with 4 samples.

Results

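The miR-17-92 cluster is a group of 6 microRNA hairpins cut from one transcript, MIR17HG, and its mature strands were followed in PC-3 cells with and without apelin. PC-3 is an established human prostate cancer cell line. Apelin, a peptide hormone, acts through the receptor APJ. The rows were taken by name, as every table entry for miR-17, miR-18a, miR-19a, miR-19b, miR-20a or miR-92a, copy-named entries included. This gave 9 of the 1096 listed entries (516 of them with a catalogue name), and the 9 rows stand for 6 distinct mature sequences. They are hsa-miR-17-5p, hsa-miR-20a-5p, hsa-miR-18a-5p, hsa-miR-19a-3p, hsa-miR-19b-1-3p, hsa-miR-19b-2-3p, hsa-miR-92a-1-3p, hsa-miR-92a-2-3p and hsa-miR-92a-3p, written without the species prefix from here on. The 2 control libraries came from untreated cells, and the 2 apelin libraries from cells given apelin at 10 µg/mL for 24 h. Cells of both groups were grown in DMEM with fetal bovine serum. Whether libraries of one group are separate cultures is not labelled. The p-values therefore reflect how far these 4 libraries scatter, and that scatter may be technical.

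A microRNA pairs with messenger RNAs mainly through its seed, bases 2 to 8 from the 5′ end, and lowers their translation and stability. The miR-17-92 transcript is induced by MYC and E2F factors, and the cluster is known as an oncogene in lymphoma and many solid tumours. Its members are known for different targets: miR-17 and miR-20a repress the cell cycle inhibitor CDKN1A and E2F1, miR-18a represses the secreted factor CTGF, and miR-92a represses the integrin ITGA5. A pair of paralog clusters carries related miRNAs, miR-106a-363 on the X chromosome and miR-106b-25 in an intron of MCM7.

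The mature sequences fall into 4 seed groups, called 17/20, 18, 19 and 92 here, and they are shown because counts are summed by these seeds below. Capitals mark the seed, and the sequences are RefSeq's with the GRCh38.p14 table.
miR-17-5p: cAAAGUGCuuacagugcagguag
miR-20a-5p: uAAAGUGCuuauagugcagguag
miR-18a-5p: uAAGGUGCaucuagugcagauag
miR-19a-3p: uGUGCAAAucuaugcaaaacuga
miR-19b-3p: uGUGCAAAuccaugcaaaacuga
miR-92a-3p: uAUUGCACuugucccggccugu
Counted from 1 at the 5′ end, miR-20a-5p differs from miR-17-5p by C1U and C12U, both outside the seed. miR-18a-5p differs from miR-17-5p by 6 substitutions, of which A4G lies in the seed. miR-19b-3p differs from miR-19a-3p by U11C alone. The hairpins lie in the order MIR17, MIR18A, MIR19A, MIR20A, MIR19B1 and MIR92A1 on the plus strand of chromosome 13, from 91350605 to 91351391 (GRCh38, RefSeq), a span of 787 bases. GENCODE release 29 gives MIR17HG (ENSG00000215417.12) from 91347820 to 91354579. In 1 of its annotated transcripts (ENST00000400282.6) all 6 hairpins are intronic, and in the other (ENST00000581816.1) all 6 lie within an exon.

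The libraries held 5322429 to 6014838 counts, and the smallest count of any cluster row was 357. Levels are given in TPM, which here means counts per 1000000 of the library with no division by length. For an entry at 0 the limit is 3 counts, or 0.499 to 0.564 TPM. The libraries were amplified with no molecular identifiers named, so one molecule can give several reads, and limits and counting intervals cover counting error only. Apelin 2 stood apart from the other libraries in base composition. Over 180 other catalogue miRNAs above 0 in all libraries, the log2 difference of apelin 2 from apelin 1 had a Spearman rho of -0.67 and a Pearson r of -0.60 with the GC of the mature sequence. The same rho was -0.27 for control 2 against control 1. These are correlations across miRNAs of the same libraries, which are not independent replicates. As markers of epithelium, 5 of 6 listed miRNAs, mostly of the miR-200 family, summed to 7866 to 8386 TPM. Most of this sum came from miR-200b-3p (6467 to 6915 TPM), followed by miR-200a-3p (903 to 1216) and miR-429 (336.5 to 468). The list was not evenly high, as miR-205-5p ranged over 72.3 to 97.65 TPM and miR-200c-3p over 23.0 to 33.25. Its remaining entry, miR-141-3p, was not analysed. Of the prostate list, which names miR-375-3p also as miR-375, 2 of 4 entries were analysed, at 25.4 to 33.4 TPM in sum. The red cell list was at a level like that of the prostate list, 28.2 to 37.1 TPM (1 of 3 analysed). Lower lists were stroma at 4.42 to 6.49 TPM (3 of 5), leukocyte 0.71 to 4.66 (2 of 4), liver 1.75 to 4.82 (1 of 1) and muscle 1.00 to 2.63 (2 of 3). Of the neuron list 0 of 1 was analysed. The endothelial marker stood at 6.32 to 7.24 TPM in 3 libraries and at 13.7 TPM in apelin 2 (1 of 2 analysed), and its part in the results below was not tested. No analysed marker was at 0 in all libraries.

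Among the cluster's mature sequences miR-92a was by far the most abundant in every library. Its reads, like those of miR-19b, can also come from a hairpin copy on the X chromosome, so these levels may not be the output of the chromosome 13 transcript alone. With each mature sequence counted once, the cluster took 3.51% and 3.03% of all counts in controls 1 and 2, and 3.53% and 2.70% in apelin 1 and 2. Without miR-92a these shares were 0.241%, 0.246%, 0.312% and 0.349%, so both apelin libraries stood above both controls. In such bulk libraries, fewer cells with a miRNA and less of it per cell cannot be told apart. The order by mean level was miR-92a-1-3p (29046 TPM), miR-17-5p (1134), miR-20a-5p (1069), miR-19b (420 and 429 in its copy-named rows), miR-18a-5p (151) and miR-19a-3p (86.1). All mature strands are listed at 22 or 23 nt, so levels per length keep this order. Of neighbours in the order, miR-17-5p and miR-20a-5p overlapped over the 4 libraries, though miR-20a-5p was the lower of the pair in each one. miR-18a-5p and miR-19a-3p overlapped over the 4 libraries too, with miR-18a-5p the higher in each. The other neighbours did not overlap.

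**Figure D1:**
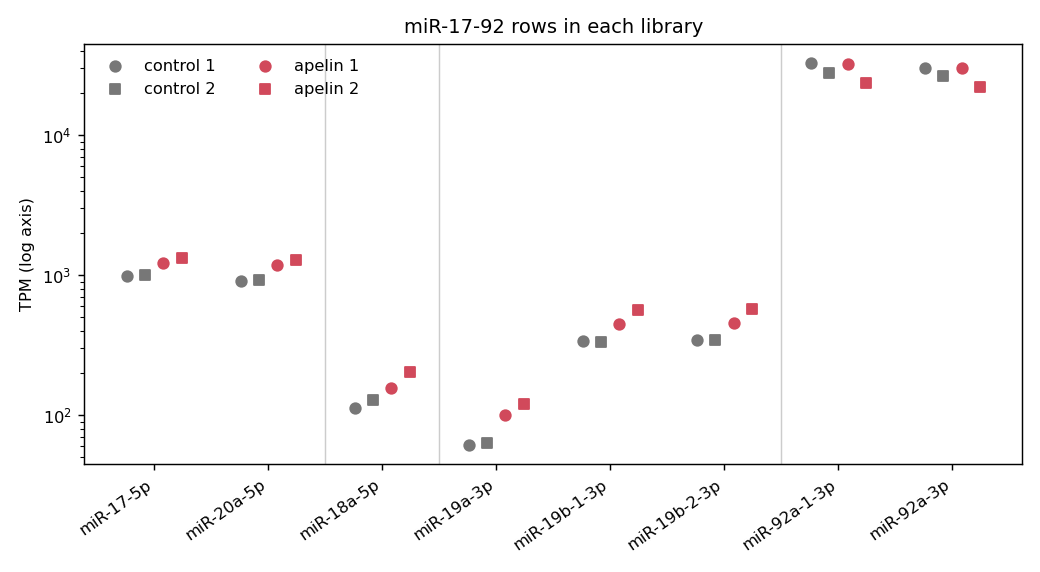
Level of each cluster row in each of the 4 libraries, in TPM on a log axis, with vertical lines between seed groups; miR-92a-2-3p has the same counts as miR-92a-3p and is not drawn. In the 6 rows left of miR-92a both apelin libraries stand above both controls, and the miR-92a rows overlap between groups.

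miR-17-5p and miR-20a-5p, which share a seed and are known to act on the G1-S transition, stood higher in both apelin libraries than in both controls. Controls 1 and 2 held miR-17-5p at 980 and 1007 TPM, and apelin 1 and 2 at 1231 and 1320 TPM. The group means, 993 ± 19.3 and 1276 ± 62.9 TPM (SD, n = 2 each), lay apart without overlap of the libraries. miR-20a-5p had 911 and 918 TPM in the controls, and 1173 and 1275 TPM with apelin. Its means of 914 ± 4.34 and 1224 ± 71.7 TPM (SD, n = 2 each) also lay further apart than the libraries of either group. The controls differed from each other by no more than counting error (control 2 over control 1 was 1.03 for miR-17-5p with a 95% counting interval of 0.991 to 1.07, and 1.01 for miR-20a-5p, 0.969 to 1.05). The apelin libraries did differ beyond it, with apelin 2 over apelin 1 at 1.07 (1.04 to 1.11) and 1.09 (1.05 to 1.12).

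The relation of these same-seed strands to each other was close to even in every library. There were 0.930 and 0.911 counts of miR-20a-5p per count of miR-17-5p in controls 1 and 2, and 0.953 and 0.966 in apelin 1 and 2. The apelin values lay above the control values, but the 95% counting intervals of each control overlapped those of both apelin libraries. They were 0.897 to 0.965 and 0.877 to 0.946 in controls 1 and 2, and 0.921 to 0.987 and 0.935 to 0.997 in apelin 1 and 2.

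miR-18a-5p, the lone member of its seed group and a known repressor of the secreted factor CTGF, had 112 and 129 TPM in the controls and 157 and 205 TPM with apelin. The groups did not overlap. Its means were 121 ± 12.04 TPM (SD, n = 2) and 181 ± 33.8 TPM (SD, n = 2), and its replicates varied beyond counting error in both groups (ratios of 1.152, 1.04 to 1.28, and 1.30, 1.19 to 1.43). Apelin 2 was the highest library.

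The miR-19 strands are known as the main oncogenic members in MYC-driven lymphoma models. Of the cluster rows miR-19a-3p had the highest fitted ratio of apelin to control (1.81), while the miR-19b rows (1.53 and 1.52) were level with miR-18a-5p (1.53). miR-19a-3p had 60.9 and 63.0 TPM in the controls and 99.95 and 121 TPM with apelin, from 366, 357, 532 and 688 counts. Means were 61.9 ± 1.55 TPM (SD, n = 2) and 110.3 ± 14.7 TPM (SD, n = 2), and both apelin libraries lay well above both controls. The miR-19b-1-3p row had 337 and 334 TPM in the controls and 449 and 560 TPM with apelin. For miR-19b-2-3p the values were 344 and 344 TPM in the controls and 455 and 574 TPM with apelin, nearly those of the other copy. In both copy-named rows apelin 2 exceeded apelin 1 beyond counting error (1.25, 1.18 to 1.31, and 1.26, 1.20 to 1.33), while the controls did not differ beyond it. Within the seed group miR-19b-1-3p was counted 5.54 and 5.29 times per count of miR-19a-3p in the controls, and 4.49 and 4.64 times with apelin. The apelin ratios were the lower ones, with 95% counting intervals of 4.95 to 6.21 and 4.73 to 5.94 in the controls and 4.09 to 4.95 and 4.27 to 5.04 with apelin, some of which overlapped.

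miR-92a, at the 3′ end of the cluster and known for its action in endothelial cells, showed no separation of the groups. The miR-92a-1-3p row had 32687 and 27859 TPM in the controls and 32166 and 23472 TPM with apelin. Its means were 30273 ± 3414 TPM (SD, n = 2) and 27819 ± 6147 TPM (SD, n = 2). Apelin 1 lay between the controls and apelin 2 lay below both, so the spread within each group was wider than the difference of means. The rows miR-92a-3p and miR-92a-2-3p had identical counts in all 4 libraries, 30391 and 26271 TPM in the controls and 30220 and 22119 TPM with apelin. With 126106 counts in the lowest of these libraries, counting error is small beside these differences: apelin 2 over apelin 1 was 0.730 (0.725 to 0.735) for miR-92a-1-3p.

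The groups were compared with edgeR's quasi-likelihood test over the 263 entries with a mean of at least 10 TPM, and all 9 cluster rows were among them. At an adjusted threshold of 0.05 edgeR called none of them and 0 entries in all (0.0%). At an unadjusted edgeR p under 0.05 there were 15 entries (5.7%), and those higher with apelin made up 2.66%. The log2 fold change of miR-19a-3p was 0.86 (SE 0.20, 95% interval 0.19 to 1.52, edgeR adjusted p = 0.627), a 1.81-fold higher fitted level. miR-20a-5p had 0.44 (SE 0.13, interval 0.029 to 0.86, edgeR adjusted p = 0.627). These were the cluster's only rows with an unadjusted p under 0.05. The remaining rows outside the 92 seed had log2 fold changes of 0.38 (SE 0.12) for miR-17-5p, 0.62 (SE 0.24) for miR-18a-5p, 0.61 (SE 0.20) for miR-19b-1-3p and 0.61 (SE 0.21) for miR-19b-2-3p, each with an edgeR adjusted p of 0.627. The miR-92a rows had -0.11 (SE 0.20) for miR-92a-1-3p and -0.10 (SE 0.20) for the other 2, with an edgeR adjusted p of 0.871. Their intervals ran from -0.77 to 0.55 and from -0.74 to 0.54, so neither a fall nor a rise within these limits is excluded.

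**Figure D2:**
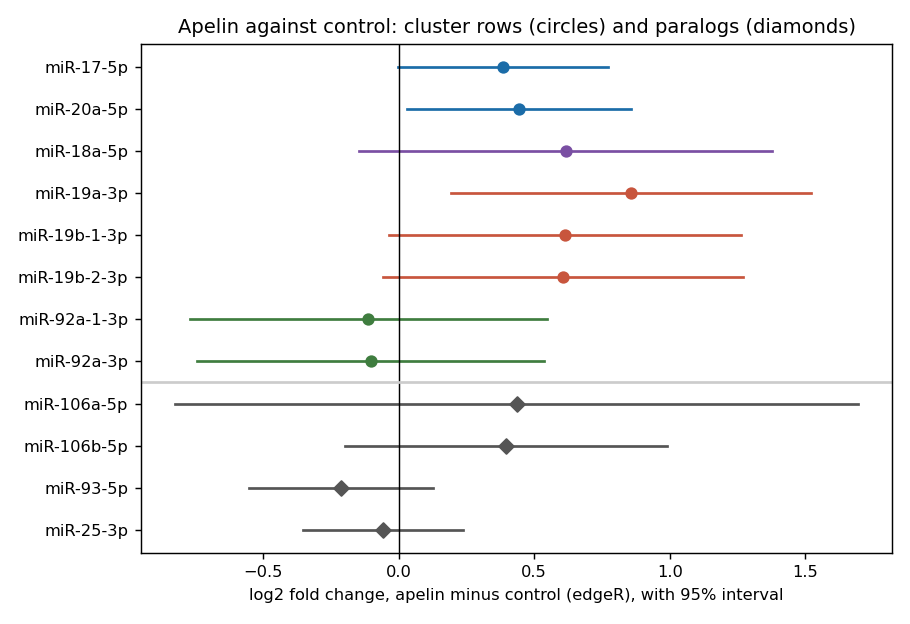
Log2 fold change of apelin against control for the cluster rows (circles, coloured by seed group) and tested members of the paralog clusters (diamonds), with 95% intervals from the edgeR fit. The 6 rows of the 17/20, 18 and 19 seeds lie between 0.38 and 0.86, and the miR-92a rows lie at -0.11 and -0.10 with intervals that span 0.

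With identical rows counted once, the cluster's 8 rows had a median log2 fold change of 0.52, beside -0.018 over all 263 tested entries. In 6 of the 9 rows both apelin libraries lay above both controls, and in 0 rows both lay below. Over all tested entries 20.9% lay above in this way and 17.5% below. Some of the 9 rows share reads, and each mature sequence has a hairpin in MIR17HG, so the rows are not independent of each other.

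DESeq2 gave another reading of the same counts. It called 5 of the 9 rows, all higher with apelin, beside 20.2% of all tested entries called (7.22% higher and 12.9% lower). These were miR-19a-3p (DESeq2 adjusted p = 0.000228), miR-20a-5p (0.00151), miR-17-5p (0.00467), miR-19b-1-3p (0.0169) and miR-19b-2-3p (0.0251). miR-18a-5p was not called (DESeq2 adjusted p = 0.0839). In the edgeR fit restricted to the 207 catalogue miRNAs above 0 in all libraries 0 were called, 0.0% of them (8.21% at an unadjusted p under 0.05). There the 5 rows with an unadjusted edgeR p under 0.05 were miR-19a-3p (0.00789), miR-19b-1-3p (0.0221), miR-19b-2-3p (0.0243), miR-20a-5p (0.0333) and miR-18a-5p (0.0398), all with an adjusted p of 0.436.

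The size of these differences moved with apelin 2. Without it the log2 fold changes were 0.61 for miR-19a-3p, 0.34 for miR-19b-1-3p, 0.32 for miR-19b-2-3p, 0.30 for miR-18a-5p, 0.28 for miR-20a-5p and 0.23 for miR-17-5p. Without apelin 1 they were 1.01, 0.79, 0.79, 0.82, 0.53 and 0.46 in the same order. The direction of these 6 rows held with any single library left out. That of miR-92a did not: miR-92a-1-3p was 0.0052 without apelin 2 and 0.016 without control 1, and -0.32 without apelin 1.

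**Figure D3:**
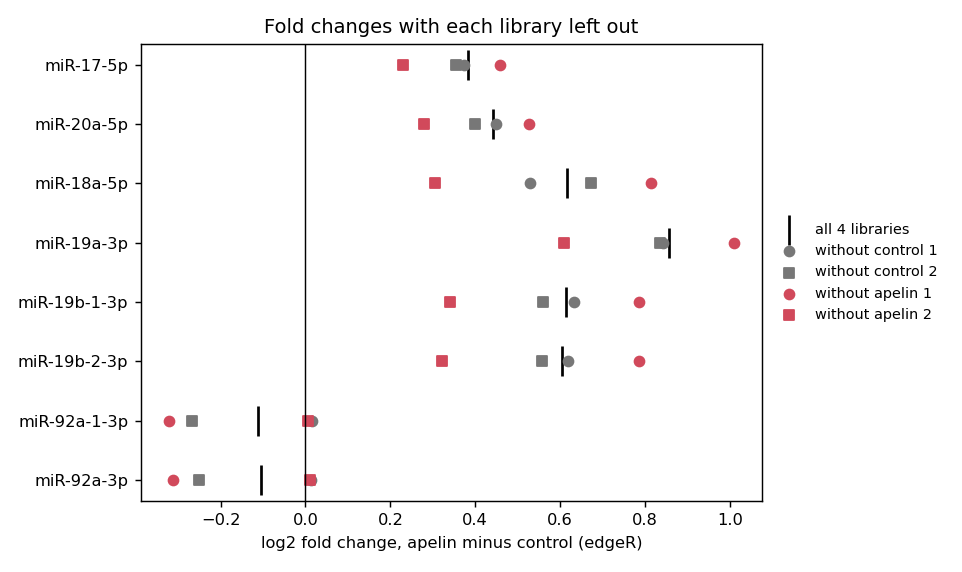
Log2 fold change of each cluster row with all libraries (black bars) and with each library left out in turn (points). Leaving out apelin 2 moves the 6 rows outside the 92 seed to between 0.23 and 0.61, and leaving out apelin 2 or control 1 moves the miR-92a rows just above 0.

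Counts were then summed within seed groups, with rows of identical counts entered once, and scaled by TMM. Apelin minus control was 0.41 on the log2 scale for the 17/20 group, 0.60 for the 18 group, 0.62 for the 19 group and -0.11 for the 92 group. The libraries did not overlap between groups for 17/20, 18 and 19 (exact permutation test, two-sided, p = 0.333 each, the smallest that 2 against 2 libraries allow). They overlapped for the 92 group (exact permutation test, p = 0.667). No test of this kind can pass a threshold of 0.05 with these libraries.

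**Figure D4:**
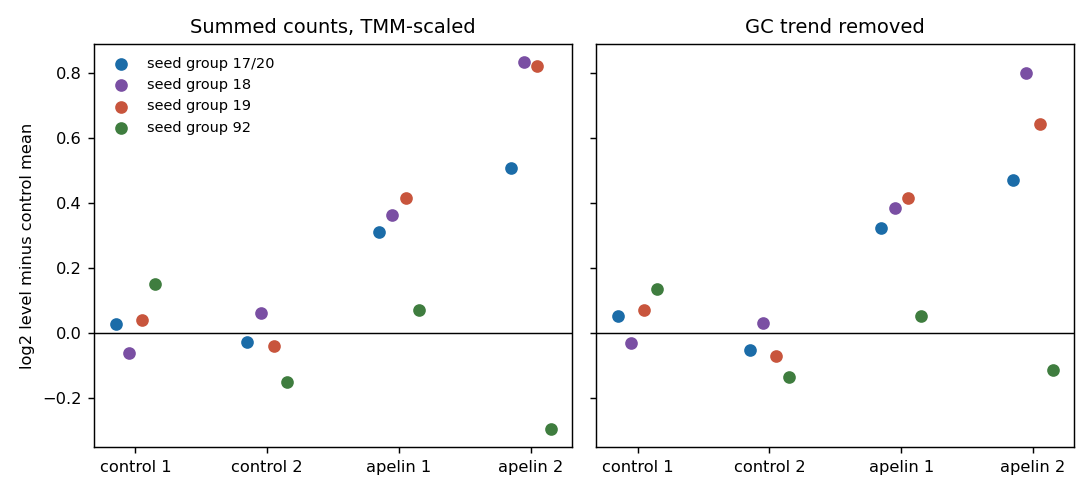
Log2 level of each seed group in each library, minus the mean of the 2 controls, from TMM-scaled summed counts (left) and after each library's GC trend was removed (right). The 17/20, 18 and 19 groups stand above both controls in both apelin libraries in the left panel, and the 92 group overlaps.

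Whether the seed groups differed from each other was read from their ratios within a library, which do not depend on scaling between libraries. The 19 and 92 groups may hold reads from the X-chromosome copies, so these ratios need not compare products of one transcript. The log2 ratio of the 19 group to the 92 group was -6.41 and -6.19 in the controls, and -5.96 and -5.18 in apelin 1 and 2, a mean difference of 0.73. The 17/20 group against the 92 group had -5.06 and -4.81 in the controls and -4.70 and -4.14 with apelin, a difference of 0.52. For the 18 group against the 92 group it was -9.14 and -8.71, then -8.63 and -7.80, a difference of 0.71. In all 3 ratios both apelin libraries lay above both controls, with a narrow gap for 18 to 92 (-8.71 in control 2 and -8.63 in apelin 1). Their sizes rested on single libraries: without apelin 2 the differences were 0.34 for 19 to 92, 0.24 for 17/20 to 92 and 0.29 for 18 to 92, and without apelin 1 they were 1.12, 0.80 and 1.13. Among the groups that stood higher, 19 to 17/20 was -1.35 and -1.38 in the controls and -1.26 and -1.05 with apelin, a difference of 0.21 without overlap (0.10 without apelin 2 and 0.31 without apelin 1). The ratios of 18 to 17/20 (difference 0.19, or 0.053 without apelin 2, 0.10 without control 1 and 0.33 without apelin 1) and of 19 to 18 (difference 0.020) overlapped. Over these 6 ratios the exact permutation p was 0.333 for 4, 0.667 for 1 and 1.0 for 1, or 0.5 to 1.0 after Benjamini-Hochberg adjustment. Reads shared by the overlapping miR-92a and miR-19b rows enter these ratios more than once. With only the most abundant row of each mature sequence, 19 to 17/20 was -2.22 and -2.24 in the controls and -2.12 and -1.90 with apelin. The differences were then 0.75, 0.52 and 0.71 for 19, 17/20 and 18 against 92. That of 19 to 17/20 was 0.22.

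As shares of the cluster's counts, the 92 group took 95.8% and 95.1% in the controls, and 94.6% and 91.8% with apelin. The 17/20 group took 2.87% and 3.38%, then 3.65% and 5.23%. The 19 group took 1.13% and 1.30%, then 1.52% and 2.53%. These sums enter reads shared by the overlapping miR-92a and miR-19b rows more than once. With only the most abundant row of each mature sequence, the 92 group took 93.1% and 91.9% in the controls and 91.2% and 87.0% with apelin, and the 17/20 group 5.39% and 6.35%, then 6.81% and 9.62%. The differences of the first shares, 1.31 percentage points for 17/20, 0.810 for 19 and -2.25 for 92, were 0.519, 0.308 and -0.867 without apelin 2 and 2.10, 1.31 and -3.63 without apelin 1. Under either way of counting the apelin libraries lay on one side of the controls (exact permutation test, two-sided, p = 0.333).

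GC content moved with these results. The mature strand of miR-19a has 34.8% GC, those of miR-19b and miR-20a 39.1%, miR-18a 43.5%, miR-17 47.8% and miR-92a 54.5%. Among the other catalogue miRNAs, those under 40% GC (n = 34) had a median log2 difference of 0.36 between apelin 2 and apelin 1, and those at 50 to under 60% GC (n = 52) had -0.18. Between apelin and control means the corresponding medians were 0.094 and -0.048, with a Spearman rho of -0.26 over 180 miRNAs. Between apelin 1 and the control mean the medians were -0.014 and 0.030. Once each library's GC trend, fitted without the cluster rows, was taken out, the edgeR log2 fold changes were 0.70 (SE 0.16) for miR-19a-3p, 0.60 (SE 0.19) for miR-18a-5p, 0.51 (SE 0.15) for miR-19b-1-3p, 0.50 (SE 0.15) for miR-19b-2-3p, 0.43 (SE 0.14) for miR-17-5p and 0.35 (SE 0.12) for miR-20a-5p, with edgeR adjusted p from 0.290 to 0.318. The miR-92a-1-3p row had -0.049 (SE 0.14). That fit called 0 of 189 entries (0.0%, and 14.3% at an unadjusted p under 0.05). The ratio of the 19 group to the 92 group then differed by 0.56 in place of 0.73, and that of 17/20 to 92 by 0.43 in place of 0.52. That of 19 to 17/20 differed by 0.13 in place of 0.21. In these ratios both apelin libraries still lay above both controls. This correction was chosen after seeing the data.

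**Figure D5:**
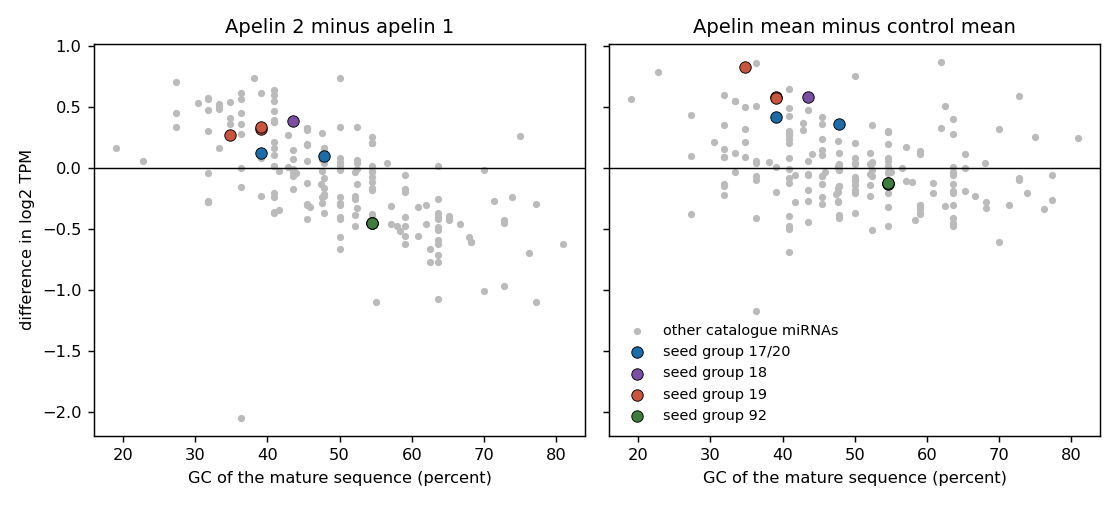
Difference in log2 TPM against GC content of the mature sequence for the cluster rows (coloured by seed group) and 180 other catalogue miRNAs (grey), between the 2 apelin libraries (left) and between the group means (right). The grey points slope down between the apelin libraries (Spearman rho -0.67) and less between the group means (-0.26).

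The copy-named rows need care, since the copies yield one mature sequence from different chromosomes. miR-19b-3p comes from MIR19B1 in the cluster and from MIR19B2 on the X chromosome (134169671 to 134169766, minus strand, GRCh38), and miR-92a-3p from MIR92A1 and from MIR92A2 (X, 134169538 to 134169612, minus strand). The stretches below show the mature strand in capitals with 4 bases of hairpin on each side, because only the lower-case bases can tell the copies apart.
MIR19B1: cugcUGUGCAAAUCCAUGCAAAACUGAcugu
MIR19B2: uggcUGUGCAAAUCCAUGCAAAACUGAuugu
MIR92A1: auggUAUUGCACUUGUCCCGGCCUGUugag
MIR92A2: aaagUAUUGCACUUGUCCCGGCCUGUggaa
The hairpins of miR-19b are alike over 25 bases and those of miR-92a over 23, and in both pairs the base right after the mature strand differs. The miR-92a-1-3p row exceeded the miR-92a-2-3p row by 13814 and 8990 counts in the controls and by 10355 and 7717 with apelin, 5.70 to 7.03% of its count. The miR-19b-2-3p row exceeded the miR-19b-1-3p row by 44, 56, 30 and 79 counts, 1.24 to 2.88%. No source used here says how reads shared by copies were assigned, so these rows do not show which chromosome a strand came from.

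Strands particular to the X-chromosome cluster were scarce. miR-106a-5p, which differs from miR-17-5p by C1A, had 12.1 and 22.4 TPM in the controls and 23.1 and 22.6 TPM with apelin. That was 0.0124 to 0.0223 counts per count of miR-17-5p. miR-18b-5p, which differs from miR-18a-5p by A20U, had 0 and 3 counts in the controls and 0 and 1 with apelin, while miR-18a-5p had 674 and 731, then 837 and 1169. Of the 8 listed strands of that cluster 2 were analysed. Apelin minus control for miR-106a-5p was 0.44 on the log2 scale (SE 0.39, edgeR adjusted p = 0.688), which was 0.057 without control 1 and 0.88 without control 2.

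The MCM7 cluster carries the 17/20 and 92 seeds, and in TPM its strands lay on different sides of the controls. miR-106b-5p (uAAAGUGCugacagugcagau), of the 17/20 seed, had 801 and 936 TPM in the controls and 1017 and 1226 TPM with apelin (log2 fold change 0.40, SE 0.18, edgeR adjusted p = 0.627), and 0.15 without apelin 2. miR-93-5p (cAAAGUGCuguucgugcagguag), of the same seed, had 5653 and 5538 TPM, then 5195 and 4357 TPM (-0.21, SE 0.11, edgeR adjusted p = 0.627). miR-25-3p (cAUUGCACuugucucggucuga), of the 92 seed, had 3857 and 3834 TPM, then 3616 and 3672 TPM (-0.057, SE 0.091, edgeR adjusted p = 0.848). That value was -0.17 without apelin 2, -0.11 without control 2 and -0.019 without apelin 1. For miR-106b-5p both apelin libraries lay above both controls in TPM, and for the other 2 they lay below. The side of miR-25-3p depended on scaling, as its groups overlapped with TMM-scaled library sizes. Its fold change of -0.057 was smaller than its SE of 0.091. There were 0.142 and 0.169 counts of miR-106b-5p per count of miR-93-5p in the controls, and 0.196 and 0.281 with apelin. Their GC contents were 42.9% for miR-106b-5p, 52.2% for miR-93-5p and 50% for miR-25-3p.

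Patterns like those of the seed groups were sought among 198 other tested catalogue miRNAs above 0 in all libraries, by the root mean square difference of log2 TPM centred over the 4 libraries. Nearest to the 17/20 group were miR-22-3p (0.039), miR-195-5p (0.055) and miR-24-1-3p (0.056), with miR-22-3p at 1140 and 1220 TPM in the controls and 1475 and 1678 TPM with apelin. Nearest to the 19 group, at wider differences, were miR-30e-5p (0.10), miR-22-3p (0.11) and miR-590-3p (0.11). Nearest to the 92 group were miR-484 (0.019), miR-92b-3p (0.038) and miR-1180-3p (0.041). miR-92b-3p (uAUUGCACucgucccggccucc) carries the 92 seed and is made from another locus, and had 1341 and 1177 TPM in the controls and 1310 and 922 TPM with apelin. Each of these 3 has a mature GC content of 63.6%, and each was lowest in apelin 2.

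MYC is known to repress a set of miRNAs while inducing miR-17-92, and 17 of these were listed. Of the 15 tested, edgeR called 0, 9 had a positive log2 fold change and 6 a negative one, and the median was 0.23 beside -0.018 over all tested entries. DESeq2 called 2 of the list higher, miR-22-3p and miR-29c-3p, and 2 lower, let-7a-5p and let-7d-5p, beside 7.22% higher and 12.9% lower of all tested entries. Both apelin libraries lay above both controls for 7 of the 15 and below for 3, beside 20.9% and 17.5% of all tested entries. The 4 most abundant were let-7a-5p (-0.39, SE 0.049, edgeR adjusted p = 0.235), miR-29a-3p (0.31, SE 0.092, 0.627), let-7g-5p (-0.066, SE 0.19, 0.909) and miR-26a-5p (-0.066, SE 0.18, 0.909). Single libraries turned or moved 3 of these values. Without apelin 1 let-7g-5p was 0.12 and miR-26a-5p 0.058, and without control 2 they were -0.10 and 0.079. Without apelin 2 let-7g-5p was -0.36, miR-26a-5p -0.28 and miR-29a-3p 0.15, and miR-26a-5p was -0.23 without control 1.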

How the data were processed

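Small RNA libraries from PC-3 cells were made by ligating adaptors, amplifying by PCR, per the labels' protocols. The authors deposited whole-number read counts and TPM values per mature miRNA and library. Per the submitters' processing notes, the tools were Trimmomatic 0.30 and DESeq2. No source used here gives the aligner, catalogue or build. The deposited TPM equal counts per 1000000 of the library, within 0.005 in 3 libraries and 0.151 in apelin 2.

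Counts were fitted with edgeR 4.0.16 (R 4.3.3; quasi-likelihood, TMM, entries with a mean of at least 10 TPM, Benjamini-Hochberg over all of them). Each SE was derived from the fold change and its F statistic. DESeq2 1.42.0 and limma 3.58.1 were alternatives, and all were tested on simulated counts. The simulated counts had a common dispersion and no GC trend, so that test does not settle which calls hold in these libraries. Seed groups were compared by two-sided exact permutation (scipy 1.17.1). Counting intervals are exact binomial at 95%. GC trends were lowess curves over 50% of the points, fitted on 180 miRNAs with a RefSeq sequence (189 of 207 had one). Named miRNAs were all rows matched by name, paralogs and other entries with their seeds, the 3 nearest patterns per seed group, and the 4 most abundant of the MYC-repressed list. The members and lists were chosen with earlier results of these data known.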

Additional observations from a re-analysis of the deposited data

How the results depend on the processing

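edgeR called 0 entries also with library totals, DESeq2 size factors, a mean of 1 TPM, catalogue names above 0 in all libraries, shared rows collapsed, a replicate block and the GC trend removed. DESeq2 called 53, no filter 52, and limma 4, 5 and 4 with pseudocounts of 1, 0.1 and 10. Leaving out a library gave 0 to 19. Of the 9 cluster rows DESeq2 called 5 and every other setting 0. The cause was not tested. The median log2 fold change of 8 rows, 0.52, was 0.29 to 0.66 with a library left out. The 6 rows outside the 92 seed reversed in 0 of 16 settings. miR-92a-1-3p ran from -0.32 to 0.016 with a library left out (0.0052 without apelin 2), and miR-92a-2-3p and miR-92a-3p from -0.31 to 0.013 (0.011 without apelin 2). The 92 group difference ran from -0.29 to 0.071 (0.038 without control 1), and the 19 to 18 ratio from -0.084 to 0.12 (-0.011 without apelin 1), or -0.064 with the GC trend removed. Leaving out a library leaves fewer samples. With 1 row per mature sequence, the share differences were 2.35 percentage points for 17/20 and 0.231 for 18, in place of 1.31 and 0.127, as overlapping rows then enter once.

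With replicate numbers as a block, miR-19a-3p had 0.85 (edgeR adjusted p = 0.206), the 8 rows a median of 0.52, and the seed groups 0.41, 0.60, 0.62 and -0.11. Nothing in the labels ties equal numbers together, and deviations of libraries with equal numbers had a correlation of 0.31 (207 miRNAs). The planned settings with passenger arms and the arm ratio were not run, as no passenger strand of these hairpins was analysed here. Counting error did not limit the miR-92a rows, while at least 357 counts stood behind every other cluster value.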
